A study of Mus musculus with 7 samples.

Results

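The protein subunits of the signal recognition particle (SRP) and of its receptor were followed from genes down to single annotated transcripts in LT-HSCs, the long-term blood stem cells of the marrow, from aged mice. The set was given by name as Srp72, Srp68, Srp9, Srp14, Srp19, Srp54a, Srp54b, Srp54c, Srpr and Srprb. These 10 genes, of 53458 genes in the libraries, hold 45 of the 136176 transcripts that matched the GENCODE M21 annotation on GRCm38. Of the 45 transcripts, 22 were annotated as protein coding, 14 as retained intron, 8 as processed transcript (no open reading frame annotated) and 1 as a target of nonsense-mediated decay. The study sequenced RNA of LT-HSCs from 3 Srp72+/- mice, which carry 1 wild-type Srp72 allele, and 4 WT (Srp72+/+) mice. All were aged C57/BL6 mice, with an exact age not given in the sources used here. Sorting kept marrow cells positive for CD150, cKit and Sca1 and negative for CD48, Flt3 and lineage antigens. Which exons of Srp72 were altered was not given in the sources used here, and Srp72 reads check the genotype labels only in part.

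SRP is a particle of an RNA, 7SL, and several proteins that binds ribosomes as they begin to make secreted and membrane proteins, and takes them to the endoplasmic reticulum. SRP54 binds the signal peptide and GTP, SRP19 prepares the RNA for SRP54, the pair of SRP68 and SRP72 sits on the RNA beside them, and the pair of SRP9 and SRP14 slows elongation until the particle reaches its receptor, which is made of the subunits encoded by Srpr and Srprb. In humans, inherited variants of SRP72 are known from families with aplastic anaemia and myelodysplasia, and variants of SRP54 from congenital neutropenia.

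The libraries held 18370936 to 35247472 estimated reads in Srp72+/- and 18054322 to 21826533 in WT. The 8 stem cell marker genes summed to 1055 to 1743 CPM (reads scaled to a common depth by TMM) in Srp72+/- and 146 to 2202 CPM in WT. The 7 neutrophil marker genes summed to 1035 to 11218 CPM in Srp72+/- and 114 to 35542 CPM in WT. WT 2 stood apart from its label, with the lowest stem cell sum (146 CPM, where the other WT libraries had 1684 to 2202 CPM), the highest neutrophil sum and 1 read of Procr, which marks stem cells. Erythroid markers summed to 225 to 6262 CPM in Srp72+/- and 134 to 8601 CPM in WT, and B cell markers to 241 to 4217 CPM in Srp72+/- and 51.2 to 10255 CPM in WT. T and NK cell markers summed to 49.6 to 89.7 CPM in Srp72+/- and 43.4 to 196 CPM in WT, and megakaryocyte markers to 108 to 794 CPM in Srp72+/- and 26.0 to 260 CPM in WT. The part of these cell types in the results was not tested beyond leaving out WT 2 and Srp72+/- 1, which held the most neutrophil, erythroid and B cell transcripts. In such bulk RNA, fewer cells of a type and less RNA per cell cannot be told apart.

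TPM, a level per transcript length whose total is the same in every library, is read here mainly within a library. A single 57-base transcript of Gm23935, annotated as a miRNA and given an effective length of 3 bases in the deposited tables, took 30.7 to 41.4% of all TPM in Srp72+/- and 32.7 to 46.7% in WT, although it held only 0.208 to 0.487% of the reads. Its share of TPM was lower than in WT 1, WT 2 and WT 4 in each of the 3 Srp72+/- libraries, and the TPM of other transcripts moves in the opposite way by construction.

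At the level of genes, none of the members passed the test between Srp72+/- and WT. With reads summed per gene, 10 of 10 members were tested, the fitted value was higher in Srp72+/- for 3 and lower for 7, and 0 passed a false discovery rate of 0.05 in edgeR's quasi-likelihood test, where 0% of the 20314 genes tested passed. At an unadjusted p under 0.05 the count was 0 of 10 members, against a background of 1.80% of genes, and in 0 of 10 did the groups fail to overlap, against 3.56% of genes. DESeq2 called 0.0447% of genes and no member. The median log2 fold change of the members was -0.09, and that of all genes tested was -0.01. The smallest p among the members was that of Srp72.

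**Figure D1:**
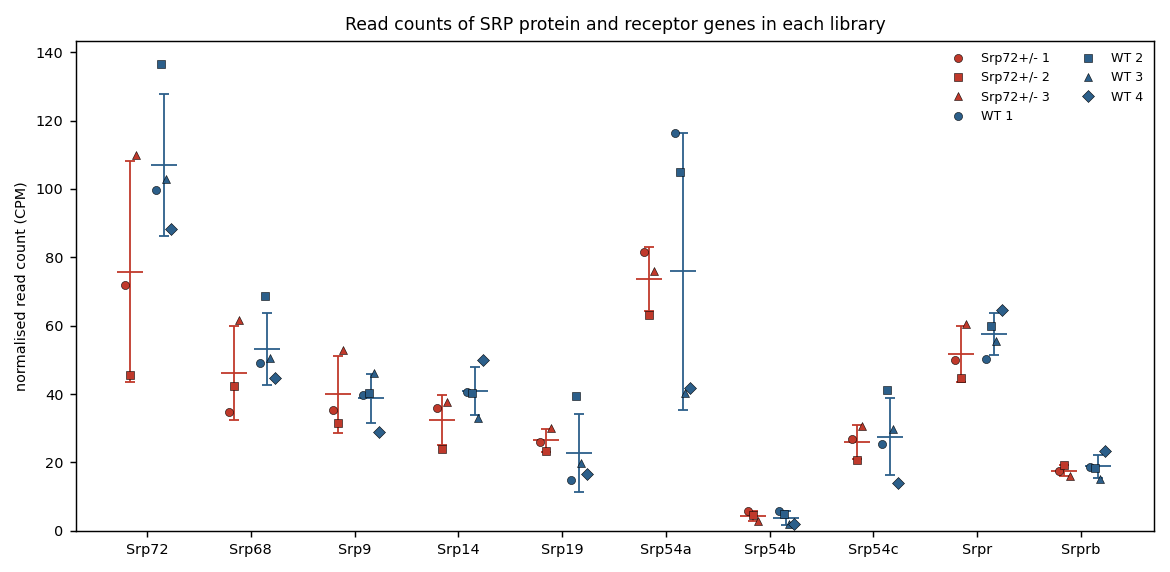
Normalised read counts (CPM) of the 10 genes in each library, with Srp72+/- in red on the left and WT in blue on the right of each pair; wide bars are means and whiskers are SD (n = 3 Srp72+/- and 4 WT). The 2 groups overlap for every gene shown, and Srp72 has its lowest value, 45.7 CPM, in Srp72+/- 2.

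Srp72 (ENSMUSG00000036323, chromosome 5, 76974683 to 76999937, plus strand) encodes the subunit altered in these mice. Its 71.9, 45.7 and 110 CPM in Srp72+/- 1, 2 and 3 stood against 99.6, 137, 103 and 88.4 CPM in WT 1 to WT 4. Srp72+/- 3 lay above WT 1, WT 3 and WT 4, so the groups overlapped. The log2 fold change was -0.50 (SE 0.32), a fold of 0.709 with a 95% interval of 0.427 to 1.18, and edgeR's adjusted p was 0.9998. Without Srp72+/- 3 it was -0.87, without Srp72+/- 2 -0.25, and without WT 2 -0.35, with adjusted p of 0.9999, 0.9996 and 0.977 in edgeR. On log2(TPM + 1) it was only -0.08 (limma, adjusted p = 0.999).

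Most Srp72 reads were assigned to the full-length coding transcript Srp72-201 (3625 bases). It held 64.4, 49.0 and 68.8% of the gene's reads in Srp72+/- 1, 2 and 3, and 80.1, 83.1, 77.7 and 43.4% in WT 1 to WT 4. WT 4 lay below all other libraries and the groups overlapped. The other coding transcript, Srp72-202, lacks exons 7 and 8 of Srp72-201 and so 183 coding bases, or 61 codons. The letters that tell the pair apart are shown in capitals, at chr5:76984118-76984242 and chr5:76984334-76984391 on the plus strand of GRCm38, with 10 bases of the neighbouring exons in lower case.
Srp72 exon 7: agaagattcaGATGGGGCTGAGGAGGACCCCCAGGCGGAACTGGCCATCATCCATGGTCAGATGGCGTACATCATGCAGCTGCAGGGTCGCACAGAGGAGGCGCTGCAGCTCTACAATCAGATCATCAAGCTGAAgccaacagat
Srp72 exon 8: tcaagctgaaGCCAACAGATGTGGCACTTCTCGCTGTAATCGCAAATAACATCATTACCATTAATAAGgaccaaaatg
Srp72-202 was assigned 0, 6.36 and 11.6% of the gene's reads in Srp72+/- 1, 2 and 3, and 8.91, 0, 0 and 19.9% in WT 1 to WT 4. It was thus listed at 0 in 1 Srp72+/- and 2 WT libraries, where a count of 0 allows up to 0.221% of the reads of the gene in Srp72+/- 1, 0.140% in WT 2 and 0.140% in WT 3 if each read were assigned without doubt. That condition is not met: only 1.45% of the 31-base words of Srp72-201 and 1.24% of those of Srp72-202 occur in no other transcript, although 100% of both occur in no other gene. Reads of these transcripts are therefore specific to Srp72, while their division is an estimate. The gene total also holds Srp72-205, of which 90.6% of the 31-base words occur in no other gene. The limits given for a count of 0 include nothing beyond the error of counting reads.

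The 7 remaining Srp72 transcripts are all of the retained-intron type. Together they took 35.6, 44.6 and 19.6% of the gene's reads in Srp72+/- 1, 2 and 3, and 11, 16.9, 22.3 and 36.7% in WT 1 to WT 4. Srp72+/- 1 and 2 were higher than WT 1, WT 2 and WT 3, while WT 4 lay above Srp72+/- 1 and 3. The means were 33.3 ± 12.7% in Srp72+/- and 21.7 ± 11% in WT (SD, n = 3 and 4), and the complementary coding share differed by a log2 odds of -0.91 (SE 0.63, limma, adjusted p = 0.930). This value ran from -1.39 without Srp72+/- 3 to -0.53 without Srp72+/- 2. Retained-intron transcripts also took 11.5, 12.4 and 9.82% of the reads of all coding genes in Srp72+/- 1, 2 and 3, and 9.31, 9.01, 11.6 and 9.81% in WT 1 to WT 4. Srp72+/- 1 and 2 were high on both scales, with WT 3 between them on the second, and the part of this library-wide share in the Srp72 values was not tested.

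The most read transcripts of this type were Srp72-205 and Srp72-204, whose introns lie toward the 3′ end of the gene. In Srp72-205 the retained stretch begins within chr5:76994692-76994791, and in Srp72-204 it ends within chr5:76997363-76997462, both on the plus strand; exon bases are in capitals and retained bases in lower case, so that the splice site passed over is where the case changes.
Srp72-205: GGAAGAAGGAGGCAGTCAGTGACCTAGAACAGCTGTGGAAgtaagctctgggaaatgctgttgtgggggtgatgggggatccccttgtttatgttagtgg
Srp72-204: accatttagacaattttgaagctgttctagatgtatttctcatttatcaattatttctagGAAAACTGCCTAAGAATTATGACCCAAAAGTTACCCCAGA
Of the 2355 bases of Srp72-204, 449 lie outside the exons of Srp72-201, and of the 1220 bases of Srp72-205, 360 do. Only 18.5% of the 31-base words of Srp72-204 and 23.4% of those of Srp72-205 occur in no other transcript. Srp72-204 held 13.7, 18.1 and 3.55% of the gene's reads in Srp72+/- 1, 2 and 3, and 2.09, 4.97, 4.71 and 4.38% in WT 1 to WT 4. Srp72+/- 1 and 2 stood above every WT library, and Srp72+/- 3 lay within the WT range. The log2 fold change in reads was 0.74 (SE 0.58, edgeR, adjusted p = 0.99996). Srp72-205 held 4.34, 5.28 and 9.86% in Srp72+/- 1, 2 and 3, and 3.22, 2.63, 8.05 and 18.8% in WT 1 to WT 4, with a log2 fold change of -0.55 (SE 0.83, edgeR, adjusted p = 0.99996). The 2 retained-intron transcripts thus had fitted values of opposite sign, and that of Srp72-205 was 0.12 without WT 4. Srp72-201 itself had a log2 fold change of -0.69 (SE 0.50, edgeR, adjusted p = 0.99996), which was -1.20 without Srp72+/- 3, -0.37 without Srp72+/- 2 and -0.46 without WT 2.

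**Figure D2:**
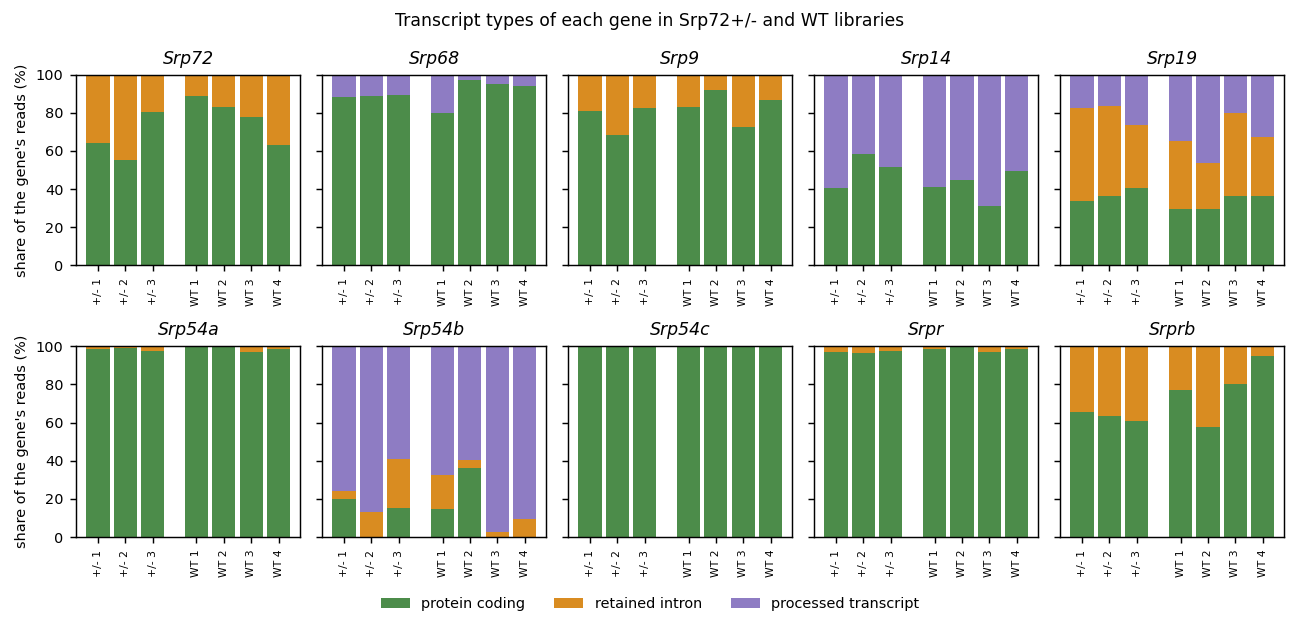
Share of each gene's reads (%) on transcripts annotated as protein coding (green), retained intron (orange) and processed transcript (purple), with the 3 Srp72+/- libraries left of the 4 WT libraries in each panel. The coding share of Srp72 is lowest in Srp72+/- 2 (55.4%) and highest in WT 1 (89.0%), and that of Srp54b is 0 in 3 libraries.

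Srp68 (ENSMUSG00000020780, chromosome 11, 116245166 to 116274217, minus strand) encodes the direct partner of SRP72. It measured 34.9, 42.2 and 61.6 CPM in Srp72+/- 1, 2 and 3, and 49.1, 68.7, 50.6 and 44.6 CPM in WT 1 to WT 4. Srp72+/- 1 and 2 were the lowest libraries, Srp72+/- 3 was second to WT 2, and the log2 fold change was -0.20 (SE 0.27, edgeR, adjusted p = 0.9998). With WT 2 and Srp72+/- 1 both left out it was 0.11. Its 2 coding transcripts together held 88.3, 88.7 and 89.2% of its reads in Srp72+/- 1, 2 and 3, and 79.7, 97.2, 94.8 and 94.2% in WT 1 to WT 4. Most of the rest was on the processed transcript Srp68-204, with 20.3% in WT 1. Srp68-202 lacks exon 3 of Srp68-201, at chr11:116268274-116268387 on the minus strand, which is 114 coding bases or 38 codons, in capitals below.
Srp68 exon 3: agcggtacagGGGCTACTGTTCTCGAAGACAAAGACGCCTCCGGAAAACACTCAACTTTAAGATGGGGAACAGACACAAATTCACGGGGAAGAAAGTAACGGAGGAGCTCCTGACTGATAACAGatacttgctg
Srp68-201, with this exon, held 52.0, 37.2 and 64.0% of the reads in Srp72+/- 1, 2 and 3, and 42.1, 63.3, 27.0 and 53.0% in WT 1 to WT 4. Srp68-202, without it, held 36.3, 51.5 and 25.2% in Srp72+/- 1, 2 and 3, and 37.7, 33.9, 67.8 and 41.2% in WT 1 to WT 4. The form without the exon was the larger in Srp72+/- 2 and in WT 3, so the order of the pair varied within each genotype. None of the 31-base words of Srp68-201 is its own (0%) and 1.13% of those of Srp68-202 are, so this division too is an estimate. The coding share of Srp68 was 88.7 ± 0.422% in Srp72+/- and 91.5 ± 7.94% in WT (SD, n = 3 and 4).

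The balance between Srp72 and Srp68 RNA was read as their ratio within each library, which does not measure the proteins. By summed TPM the ratio was 2.55, 1.78 and 1.92 in Srp72+/- 1, 2 and 3, and 1.41, 2.06, 2.85 and 3.37 in WT 1 to WT 4. WT libraries lay both above and below all of those of Srp72+/-, and the difference of log2 ratios was -0.16 (two-sided exact permutation test, p = 0.686, where 35 splits allow no p below 0.0286). By reads the ratio was 2.06, 1.08 and 1.78 in Srp72+/- 1, 2 and 3, and 2.03, 1.99, 2.03 and 1.98 in WT 1 to WT 4. The means were 1.64 ± 0.505 in Srp72+/- and 2.01 ± 0.0255 in WT (SD, n = 3 and 4), with the WT libraries nearly alike. Srp72+/- 2 and 3 lay below every WT library and Srp72+/- 1 above them (exact permutation p = 0.143). By coding TPM alone the ratio was 0.903, 0.449 and 1.12 in Srp72+/- 1, 2 and 3, and 1.42, 1.02, 0.990 and 1.002 in WT 1 to WT 4, with an exact permutation p of 0.257. Srp72+/- 2 was the lowest library by reads and by coding TPM, but not by summed TPM.

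**Figure D3:**
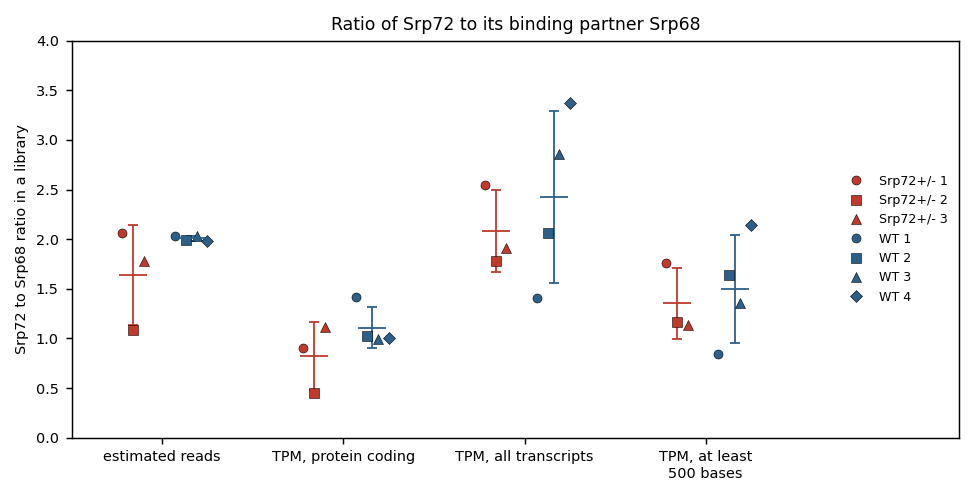
Ratio of Srp72 to Srp68 within each library by 4 measures (estimated reads, TPM of protein coding transcripts, TPM of all transcripts, and TPM of transcripts of at least 500 bases), Srp72+/- in red left of WT in blue; wide bars are means and whiskers are SD (n = 3 and 4). By reads the WT libraries lie between 1.98 and 2.03, and by summed TPM they spread from 1.41 to 3.37.

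Srp9 and Srp14, which encode the pair that slows elongation, differed in how much of their RNA was coding. Srp9 (ENSMUSG00000026511, chromosome 1, 182124737 to 182132407, plus strand) measured 35.3, 31.6 and 52.8 CPM in Srp72+/- 1, 2 and 3, and 39.7, 40.2, 46.3 and 28.9 CPM in WT 1 to WT 4, a log2 fold change of 0.04 (SE 0.28, edgeR, adjusted p = 0.9998). Its coding transcript Srp9-201 contains an exon of 69 bases (23 codons) at chr1:182128684-182128752, plus strand, in capitals below, which Srp9-202 lacks.
Srp9 exon 2: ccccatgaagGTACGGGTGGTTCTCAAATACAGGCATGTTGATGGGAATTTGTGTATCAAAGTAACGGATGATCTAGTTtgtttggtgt
Srp9-202 held 18.6, 0.650 and 0% of the gene's reads in Srp72+/- 1, 2 and 3, and 7.89, 52.3, 20.4 and 36.3% in WT 1 to WT 4. Srp72+/- 2 and 3 were below all WT libraries, but Srp72+/- 1 lay above WT 1. The 0 in Srp72+/- 3 allows up to 0.172% of the gene's reads if each read were assigned without doubt. Only 5.17% of the 31-base words of Srp9-202 occur in no other transcript, so that condition is not met. In reads the log2 fold change of Srp9-202 was -2.30 with an SE of 1.70 (edgeR, adjusted p = 0.99996). Its size rested on Srp72+/- 1, without which it was -6.64 with an unadjusted p of 0.00716 and an adjusted p of 0.99996 in edgeR (0.787 to 1 over the alternatives); without Srp72+/- 3 it was -1.72. For the use of Srp9 transcripts the smallest p among the members was found (0.220, edgeR, adjusted p = 0.99998). Srp9-201 held 62.2, 67.9 and 82.3% in Srp72+/- 1, 2 and 3, and 74.9, 39.6, 52.3 and 50.3% in WT 1 to WT 4. Between 6.76 and 27.1% of Srp9 reads in a library were on the retained-intron transcript Srp9-203. A processed pseudogene, Gm13736, holds 16.7% of the 31-base words of Srp9-201, so some reads cannot be placed with certainty.

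Srp14 (ENSMUSG00000009549, chromosome 2, 118475850 to 118479711, minus strand) measured 35.8, 24.1 and 37.6 CPM in Srp72+/- 1, 2 and 3, and 40.5, 40.2, 32.9 and 49.9 CPM in WT 1 to WT 4. The log2 fold change was -0.33 (SE 0.26, edgeR, adjusted p = 0.9998). On average most of its reads (54.8%) fell on Srp14-204, a processed transcript of 542 bases, whose first exon at chr2:118478832-118478883, minus strand, is in capitals below with the start of the next exon in lower case.
Srp14-204 exon 1: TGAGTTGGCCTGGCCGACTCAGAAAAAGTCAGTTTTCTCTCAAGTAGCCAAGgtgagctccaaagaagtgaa
Srp14-204 held 59.5, 41.7 and 48.3% of the gene's reads in Srp72+/- 1, 2 and 3, and 58.9, 55.3, 69.1 and 50.6% in WT 1 to WT 4. In CPM the groups did not overlap, with means of 16.6 CPM in Srp72+/- and 23.8 CPM in WT, but the log2 fold change of -0.52 (SE 0.35) did not pass the test (edgeR, adjusted p = 0.99996). The coding Srp14-201 averaged 15.6 CPM in Srp72+/- and 17.3 CPM in WT. Because 5.27% of the 31-base words of Srp14-204 and 8.33% of those of Srp14-201 are their own, the high share of the noncoding form rests on few distinguishing bases. The ratio of Srp9 to Srp14 by summed TPM was 0.386 ± 0.0371 in Srp72+/- and 0.381 ± 0.110 in WT (SD, n = 3 and 4), with Srp14 above its partner in every library. This order rested on the noncoding Srp14-204, which held 67.6% of Srp14 TPM. By coding TPM, Srp9 lay above Srp14 in Srp72+/- 1 and 3 and in WT 2 and WT 3, and below it in the other libraries, with means over the 7 libraries of 12.6 TPM for Srp9 and 11.8 TPM for Srp14.

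The 3 Srp54 genes lie side by side on chromosome 12 of the mouse, Srp54a (ENSMUSG00000073079) at 55080262 to 55115367, Srp54b (ENSMUSG00000112449) at 55155104 to 55189573 and Srp54c (ENSMUSG00000079108) at 55230168 to 55263836, all on the plus strand. Their coding sequences are each 1512 bases long without the stop codon. Those of Srp54a and Srp54b have 0 differences, and Srp54c differs from Srp54a at 6 positions counted from the first base of the coding sequence, T501C, T945C, G946A, T965G, A1197T and G1249A, an identity of 99.6%. The window with 3 of the 6 is shown, coding positions 914 to 973, with the differing letters in capitals, at chr12:55102495-55102554 for Srp54a, chr12:55177555-55177614 for Srp54b and chr12:55252799-55252858 for Srp54c.
Srp54a: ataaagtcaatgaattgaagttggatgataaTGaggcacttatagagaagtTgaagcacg
Srp54b: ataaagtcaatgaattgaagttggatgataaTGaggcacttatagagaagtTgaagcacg
Srp54c: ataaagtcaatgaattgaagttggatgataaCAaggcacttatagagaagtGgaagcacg
Of the 31-base words of Srp54a-201 and of Srp54b-201, 0% occur in that gene alone, against 6.30% for Srp54c-201 and 23.0% for the longer Srp54a-202. The division of reads among the genes therefore rests mainly on bases outside the shared coding sequence, and their sum is the firmer value.

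**Figure D4:**
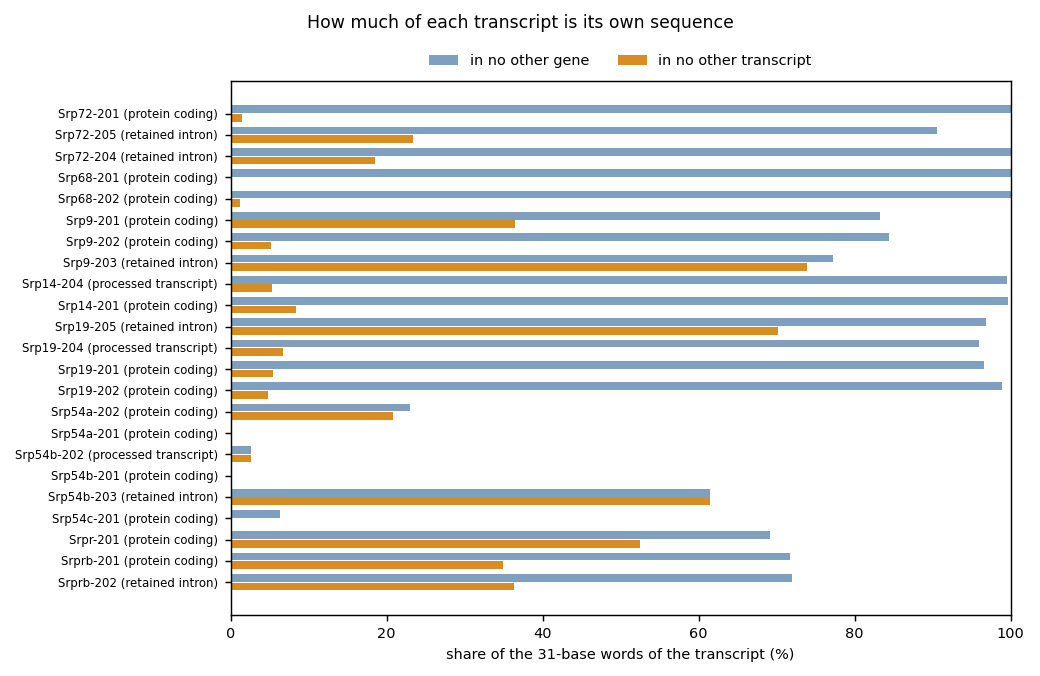
Share (%) of the 31-base words of each named transcript found in no other gene (blue) and in no other transcript (orange) of the annotation. Srp72-201 is specific to its gene (100%) but not to its transcript (1.45%), and Srp54a-201 and Srp54b-201 have 0% of either.

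Summed over the 3 genes, Srp54 measured 114, 88.5 and 110 CPM in Srp72+/- 1, 2 and 3, and 148, 151, 72.2 and 57.8 CPM in WT 1 to WT 4. The WT libraries formed a high and a low pair around all Srp72+/- libraries, and the log2 fold change was -0.04 (SE 0.37), a fold of 0.971 with a 95% interval of 0.539 to 1.75 (edgeR, adjusted p = 0.9998). Srp54a made up most of it, with 81.5, 63.3 and 76.1 CPM in Srp72+/- 1, 2 and 3, and 116, 105, 40.3 and 41.9 CPM in WT 1 to WT 4. Srp54c measured 26.8, 20.8 and 30.7 CPM in Srp72+/- 1, 2 and 3, and 25.4, 41.2, 29.8 and 13.9 CPM in WT 1 to WT 4. Srp54b was the lowest member, at 5.80, 4.496 and 2.95 CPM in Srp72+/- 1, 2 and 3, and 5.83, 5.04, 2.12 and 2.001 CPM in WT 1 to WT 4. WT 3 and WT 4 were lower than WT 1 and WT 2 for Srp54a and Srp54b. The log2 fold changes were -0.04 for Srp54a (SE 0.42), 0.24 for Srp54b (SE 0.56) and -0.08 for Srp54c (SE 0.38), each with an edgeR adjusted p of 0.9998.

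Within Srp54a the longest coding transcript, Srp54a-202 (4498 bases), held 62.3 to 80.3% of the reads. Srp54b had the lowest mean coding share of the members: 59.0 to 97.1% of its reads were on Srp54b-202, a processed transcript of 580 bases of which 2.55% of the 31-base words are its own. Its coding transcript Srp54b-201 had 21.9, 0 and 15.04 reads in Srp72+/- 1, 2 and 3, and 15.6, 28.6, 0 and 0 reads in WT 1 to WT 4. As Srp54b-201 shares every 31-base word with other genes, these reads do not show whether Srp54b was expressed as coding RNA. The short coding transcript Srp54a-205 (428 bases) had 32.8, 15.9 and 72.3 reads in Srp72+/- 1, 2 and 3, and 10.1, 9.36, 4.81 and 14.9 reads in WT 1 to WT 4. In CPM its groups did not overlap, and its log2 fold change of 1.58 (SE 0.80) had the smallest p of the tested member transcripts, 0.0856 (edgeR, adjusted p = 0.99996).

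Srp19 (ENSMUSG00000014504, chromosome 18, 34330847 to 34336599, plus strand) measured 26.0, 23.5 and 30.1 CPM in Srp72+/- 1, 2 and 3, and 14.8, 39.4, 19.95 and 16.7 CPM in WT 1 to WT 4. The Srp72+/- libraries lay above WT 1, WT 3 and WT 4 and below WT 2, and the log2 fold change was 0.23 (SE 0.38, edgeR, adjusted p = 0.9998). Without WT 2 it was 0.63 (edgeR, adjusted p = 0.967). Its most read transcript on average, the retained-intron Srp19-205, averaged 11.3 CPM in Srp72+/- and 7.20 CPM in WT without overlap of the groups, a log2 fold change of 0.65 (SE 0.41, edgeR, adjusted p = 0.99996). The shorter coding transcript Srp19-202 held 15.3, 15.6 and 17.6% of the gene's reads in Srp72+/- 1, 2 and 3, and 13.2, 0, 0 and 12.2% in WT 1 to WT 4. Its groups did not overlap either, and the log2 fold change was 2.07 with an SE of 1.63 (edgeR, adjusted p = 0.99996). The 0 in WT 2 and WT 3 allows up to 0.487 and 0.721% of the gene's reads if each read were assigned without doubt. Few of the 31-base words of Srp19-202 occur in no other transcript, so that condition is not met. The division of reads between Srp19-202 and the other Srp19 transcripts is an estimate. Summed over coding transcripts, Srp19 stood at 7.61, 9.19 and 8.25 TPM in Srp72+/- 1, 2 and 3, and 3.49, 4.46, 4.92 and 4.49 TPM in WT 1 to WT 4. These TPM did not overlap, but how many of all genes separate by coding TPM was not counted. The separation rested on Srp19-202, at 4.56 to 5.24 TPM in Srp72+/- and 0 to 2.11 TPM in WT. The longer Srp19-201 overlapped, at 3.05 to 3.95 TPM in Srp72+/- and 1.42 to 4.92 TPM in WT. On log2(TPM + 1) the median log2 fold change of all genes was itself 0.13. On coding reads the log2 fold change of Srp19 was 0.48 (edgeR, adjusted p = 0.999).

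Srpr (ENSMUSG00000032042, chromosome 9, 35200175 to 35247973, plus strand) encodes the subunit that docks SRP54. It measured 50.1, 44.6 and 60.5 CPM in Srp72+/- 1, 2 and 3, and 50.2, 59.99, 55.4 and 64.5 CPM in WT 1 to WT 4. The groups overlapped, and the log2 fold change was -0.15 (SE 0.21, edgeR, adjusted p = 0.9998). Its main coding transcript Srpr-201 held 93.1, 89.8 and 90.3% of the reads in Srp72+/- 1, 2 and 3, and 98.6, 95.1, 93.5 and 98.5% in WT 1 to WT 4. All Srp72+/- values were below all WT values, the nearest being 93.1% in Srp72+/- 1 and 93.5% in WT 3. How many of all transcripts separate by share of reads was not counted, so this separation has no background. The coding share of Srpr overlapped between the groups. The log2 fold change in reads of Srpr-201 was -0.24 (SE 0.24, edgeR, adjusted p = 0.99996). A processed pseudogene, Gm6733, holds 28.8% of the 31-base words of Srpr-201, and it was assigned 1.20 to 34.2 reads in Srp72+/- and 4.93 to 29.0 reads in WT. Tirap, Foxred1 and Fam118b overlap the Srpr locus on the opposite strand, and whether the counting used strand was not given in the sources used here.

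Srprb (ENSMUSG00000032553, chromosome 9, 103188032 to 103202137, minus strand) encodes the membrane-anchored subunit of the receptor. It measured 17.6, 19.1 and 16.1 CPM in Srp72+/- 1, 2 and 3, and 18.6, 18.4, 15.04 and 23.2 CPM in WT 1 to WT 4, a log2 fold change of -0.10 (SE 0.27, edgeR, adjusted p = 0.9998). The retained-intron transcript Srprb-202 held 34.3, 36.8 and 39.03% of the reads in Srp72+/- 1, 2 and 3, and 22.8, 42.3, 19.8 and 5.10% in WT 1 to WT 4. The Srp72+/- libraries were alike and above WT 1, WT 3 and WT 4, but WT 2 was the highest of all. Its log2 fold change in reads was 0.68 (SE 0.66, edgeR, adjusted p = 0.99996), and the coding share was 63.3 ± 2.37% in Srp72+/- and 77.5 ± 15.3% in WT (SD, n = 3 and 4; limma, adjusted p = 0.930). A protein-coding gene, Gm20425, overlaps Srprb on the same strand. It holds 28.3% of the 31-base words of Srprb-201, 26.2% of those of Srprb-202 and 62.2% of those of Srprb-203. Although Gm20425 was assigned 0 reads in every library, some Srprb reads cannot be placed with certainty.

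Over all members, the coding share of reads differed more between genes than between genotypes. Averaged over the 7 libraries it was 100% for Srp54c, 98.5% for Srp54a, 97.8% for Srpr, 90.3% for Srp68, 80.8% for Srp9, 73.3% for Srp72, 71.4% for Srprb, 45.2% for Srp14, 34.6% for Srp19 and 12.4% for Srp54b. Among 8597 protein-coding genes with coding and other transcripts, the median was 79.4%, the quartiles were 57.3 and 91.9%, and 5% of genes lay below 19.0%. Srp14 and Srp19 thus lay below the lower quartile and Srp54b below the lowest 5%. Between genotypes, 9 members could be tested, 6 with a lower and 3 with a higher coding share in Srp72+/-. The median coding share over all genes was 79.6, 77.3 and 81.4% in Srp72+/- 1, 2 and 3, and 83.1, 82.4, 79.9 and 81.8% in WT 1 to WT 4. Of the 9 members, 0 passed an FDR of 0.05 in limma (background 0.0349% of 8604 genes). An unadjusted p under 0.05 was found for 0 (background 4.52%), and in 0 did the groups not overlap (background 5.53%). In edgeR's test of transcript usage, 0 of 9 members passed (background 0.356%), and 0 had an unadjusted p under 0.05 (background 3.22%).

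Transcript by transcript, 36 of the 45 passed the filter on low counts and 0 were called by edgeR's quasi-likelihood test, with a background of 0% of 51427 transcripts. At an unadjusted p under 0.05 the count was 0 of 36 (background 2.02%). Fitted values were higher in Srp72+/- for 17 and lower for 19. Of the retained-intron transcripts 9 of 14 were higher in Srp72+/-, and of the coding transcripts 6 of 18 were. The groups did not overlap for 4 of 36 (11.1%, background 4.52%), namely Srp19-205, Srp19-202 and Srp54a-205, which were higher in Srp72+/-, and Srp14-204, which was lower. Transcripts of a gene compete for the same reads, so these counts are not of independent items. Of the 9 not tested, 4 had 0 reads in all libraries (Srp14-203, Srp19-206, Srp54a-206 and Srpr-203).

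The stoichiometry of the subunit RNAs, read as summed TPM within a library, depended on which transcripts were counted, and protein was not measured. Averaged over the 7 libraries, Srp14 was highest with 37.1 TPM, followed by Srp72 with 26.5, Srp54a with 17.4, Srp9 with 13.8, Srprb with 12.8, Srp68 with 12.1, Srp19 with 12.1, Srpr with 11.3, Srp54c with 4.41 and Srp54b with 3.99 TPM. As a ratio to the median member of the same library, Srp14 was at 2.15 to 4.78 and Srp72 at 1.55 to 3.23 in every library, while Srp54c was at 0.233 to 0.428 and Srp54b at 0.170 to 0.495. By this sum over all transcripts Srp14 exceeded Srp72 in 7 of 7 libraries. The 6 genes from Srp54a to Srpr in this order were not separated from their neighbours beyond the spread over libraries; Srprb alone ranged from 0.235 to 1.85. Neither were Srp54c and Srp54b separated from each other. The high rank of some members rested on short transcripts with few reads. Transcripts under 500 bases held 65.4% of Srprb TPM but 2.58% of its reads, 42.9% of Srp54a TPM but 6.40% of its reads, 36.4% of Srp72 TPM but 4.97% of its reads, and 16.8% of Srpr TPM but 2.19% of its reads. Srprb-203, of 231 bases, had 1.33, 5.45 and 35.1 reads in Srp72+/- 1, 2 and 3, which were given 1.93, 8.15 and 22.7 TPM, and 0, 9.42, 15.4 and 8.06 reads in WT 1 to WT 4, given 0, 9.76, 21.1 and 8.90 TPM.

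With transcripts of at least 500 bases the order was Srp14 (37.1 TPM), Srp72 (16.5), Srp9 (13.8), Srp68 (12.1), Srp19 (12.1), Srpr (9.19), Srp54a (8.91), Srp54c (4.41), Srp54b (3.99) and Srprb (2.42 TPM). Srprb, the receptor's membrane anchor, thus moved to the last place, and the ratio of Srpr to Srprb became 4.35 ± 1.47 in Srp72+/- and 3.75 ± 1.07 in WT, against 1.496 ± 1.10 in Srp72+/- and 1.33 ± 1.26 in WT over all transcripts (SD, n = 3 and 4). Both leading genes lost their places by coding TPM. There the highest means were 16.9 TPM for Srp54a, 12.6 TPM for Srp9 and 12.1 TPM for Srprb, Srp14 was number 4 of 10 with 11.8 TPM, and Srp72 was number 7 with 7.85 TPM, beside Srp68 with 8.06 TPM. The places of Srp54a and Srprb rested again on short coding transcripts. Srp54a-204 (472 bases) held 22.7 of the 34.7 coding TPM of Srp54a in Srp72+/- 1. Without Srprb-203 (231 bases), Srprb was left with Srprb-201, at 0.899 to 2.90 TPM over the libraries. In WT 3, Srp14 was below Srp72 by coding TPM, with 8.36 and 10.1 TPM. In coding TPM, Srp72 was at 5.65, 4.06 and 9.13 TPM in Srp72+/- 1, 2 and 3, and 10.4, 8.20, 10.1 and 7.44 TPM in WT 1 to WT 4. Srp72+/- 1 and 2 lay below all WT libraries and Srp72+/- 3 within their range.

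**Figure D5:**
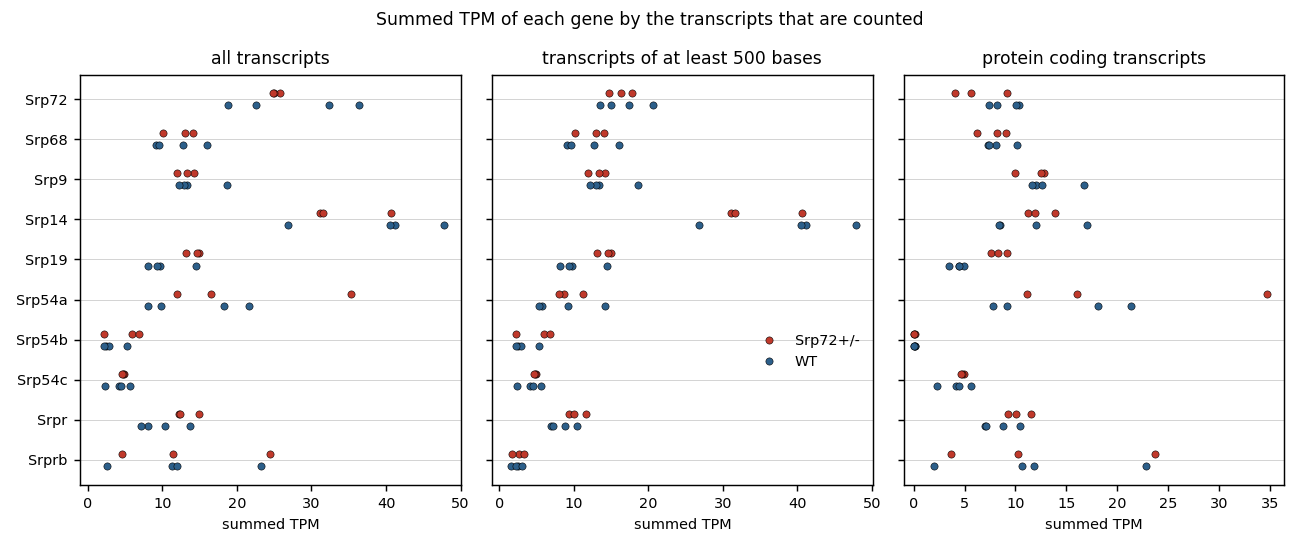
Summed TPM of each gene in the 7 libraries, counting all transcripts (left), those of at least 500 bases (middle) or protein coding ones (right), with Srp72+/- in red above WT in blue in each row; the 3 axes differ in range. Srp14 is highest by its mean in the left and middle panels and Srp54a in the right one, and Srprb falls from a mean of 12.8 TPM with all transcripts to 2.42 TPM with those of at least 500 bases.

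The RNA of the particle, read as Rn7s1 (a 7SL gene, annotated as misc_RNA), measured 5.51, 4.74 and 12.4 CPM in Srp72+/- 1, 2 and 3, and 9.85, 19.4, 20.8 and 17.5 CPM in WT 1 to WT 4. Srp72+/- 3 lay above WT 1, and the log2 fold change was -1.16 (SE 0.46), with an adjusted p of 0.9998 and an unadjusted one of 0.0340 in edgeR. The gene has many near-identical copies and its level is uncertain. Genes of the steps next to SRP were read from lists. The translocon list held genes of the channel that SRP delivers ribosomes to and of proteins associated with it. Of its 12 tested genes, 2 had higher and 10 lower fitted values, 0 were called, and the median log2 fold change was -0.12. Without WT 2 this median was 0.058, with 7 higher and 5 lower, so that its direction rested on the library that stands apart from its label; it was -0.28 without WT 3 and -0.26 without Srp72+/- 3. Ssr4 (0.27, SE 0.29) and Ssr3 (-0.25, SE 0.28), subunits of the translocon-associated complex, had the smallest p of the list. Of 10 genes of the nascent chain and ribosome exit site, 3 were higher, 7 lower and 0 called, with a median of -0.16; Naca, which shields new chains from SRP, was at -0.26 (SE 0.23) and Naa15, a subunit of an acetyltransferase, at -0.27 (SE 0.25). Of 8 genes of targeting without SRP, 4 were higher, 4 lower and 0 called, with a median of -0.04, Asna1, the ATPase for tail-anchored proteins, at 0.55 (SE 0.39) and the chaperone gene Hspa8 at -0.34 (SE 0.33). The exit-site median was -0.037 without Srp72+/- 2, and that of targeting without SRP was 0.060 without Srp72+/- 2. These medians stand beside -0.01 for all genes tested. On log2(TPM + 1) in limma they were 0.19 for the translocon, 0.26 for the exit site and 0.19 for targeting without SRP, where the median of all genes was 0.13, so no direction held for any of the 3 lists under every alternative.

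The pattern of Srp72 over the 7 libraries was compared with that of other genes. Among 6278 protein-coding genes with a mean of at least 20 CPM, likeness was measured as the root mean square difference in centred log2 CPM, whose median over these genes was 0.53. The closest were Lyar with 0.16, Snrpg with 0.16, Raly with 0.16, Srgn with 0.17 and Ranbp1 with 0.18. Of the members, Srp68 was the closest with 0.31 (place 239), then Srp14 with 0.35 (place 465), Srpr with 0.36 (place 595), Srp9 with 0.38 (place 779), Srp54c with 0.44 (place 1678), Srp19 with 0.57 (place 3641) and Srp54a with 0.64 (place 4386). The first 5 of these lay below the median difference of all ranked genes, and Srp19 and Srp54a above it. The SD of log2 CPM of Srp72 was 0.51, so a gene with a constant level would also lie below that median. A place below the median does not in itself show likeness to Srp72. Srp54b and Srprb, below 20 CPM, were not ranked. All points share the same 7 libraries and their cell content, and no test was made of this order.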

How the data were processed

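RNA of sorted LT-HSCs (3 Srp72+/- and 4 WT libraries, labelled as separate mice) was amplified with the Ovation RNA-seq V2 kit and made into libraries with a TruSeq V2 kit, per the labels' protocols. The deposited tables give estimated counts (expected counts) and TPM per transcript, with transcript lengths and effective lengths, made by the authors with Salmon 0.12.0, per the submitters' processing notes, which also name mm10 and GRCm38.p6. The transcript release, strand setting and bias options were not given in the sources used here. Amplification of small inputs without molecular identifiers can enlarge differences between libraries.

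Transcripts were matched to GENCODE M21 (136176 of 136288; the 112 without a match held 0.0413 to 0.0622% of reads and were left out). Reads were summed per gene, rounded, filtered (filterByExpr, minimum count 10, minimum total 15), scaled by TMM and tested in edgeR 4.0.16 (quasi-likelihood test) under R 4.3.3, with no covariate and Benjamini-Hochberg adjustment over all features. Transcripts were tested in the same way, transcript usage with diffSpliceDGE (Simes), and the coding share with limma 3.58.1 (trend) on its log2 odds after adding 0.5 reads to each class, for genes with at least 10 reads in every library. DESeq2 1.42.0 was an alternative, and limma on log2(TPM + 1) another, with a pseudocount of 1. A floor is 3 reads. The procedures were tested on simulated data with planted changes larger than those fitted for the members. That check does not show whether changes of the fitted size would be found. Sequences and coordinates come from GENCODE M21 (GRCm38), and words of 31 bases were compared over its transcripts. No pair of libraries held identical values.

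The members, gene lists and alternatives were chosen with earlier results of these data known. All members were named, with transcripts holding at least 10% of a gene's reads (5% for retained introns), the 2 list genes with the smallest p and the 5 genes closest to Srp72. Srp72-202, Srp54a-205, Srprb-203, Rn7s1 and the transcripts with 0 reads were named after their values were seen. Alternatives were other scalings, no low-count filter, a length offset, coding transcripts only, leaving out 1 library at a time, leaving out WT 2 with Srp72+/- 1, and a replicate block.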

Additional observations from a re-analysis of the deposited data

Results flagged for a closer look

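Among 55 measures of the members over the 4 WT libraries (levels and shares of reads), 3 had 1 library far from the others by Dixon's ratio at its 95% critical value, where chance flags about 1 in 20. The check was not run on the 3 Srp72+/- libraries. Srp72-201 held 43.4% of Srp72 reads in WT 4, and 77.7 to 83.1% in the other WT libraries. Srp54a-202 held 62.3% of Srp54a reads in WT 2, and 73.1 to 75.3% in the others. Srp54c-201 held 94.3% of Srp54c reads in WT 3 and 100% in the others, and it shares all its 31-base words with other transcripts. With the others tied at 100%, any departure of WT 3 would be flagged, so the rate of 1 in 20 does not apply to it. The coding share of Srp54c, 100% in every library, could not be flagged.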

How the results depend on the processing

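The count of members called at an FDR of 0.05 was 0 for genes, transcripts, coding shares and transcript usage under every alternative that was run, leaving out each library included (0 to 0). The Srp72 gene level kept its sign in 17 alternatives, -0.87 to -0.25 with 1 library left out and -0.65 to -0.08 otherwise; without Srp72+/- 3 its unadjusted p was 0.0222 and the adjusted p 0.9999 (edgeR). The log2 ratio of Srp72 to Srp68 ranged from -0.40 to 0.022 with 1 library left out (0.022 without WT 4) and was -0.10 over transcripts of at least 500 bases, a choice made after seeing the data. Other signs turned, all without a call, and the cause was not tested. With WT 2 and Srp72+/- 1 left out, gene levels turned to 0.075 for Srp54a, 0.16 for Srp54c and 0.11 for Srp68, and transcript levels to 0.35 for Srp19-201, 0.20 for Srp19-204, 0.15 for Srp54c-201 and 0.50 for Srp68-201. A length offset gave 0.20 for Srp54a, -0.34 for Srp9, 0.20 for Srpr and 0.052 for Srprb. On log2(TPM + 1) in limma the values were 0.49 for Srp54a, 0.20 for Srp54c, 0.077 for Srp68, -0.094 for Srp9, 0.42 for Srpr and 0.16 for Srprb. With TPM rescaled over transcripts of an effective length of at least 100 bases, also chosen after seeing the data, they were 0.35 for Srp54a, 0.090 for Srp54c, -0.26 for Srp9 and 0.29 for Srpr. Coding transcripts alone gave 0.028 for Srp54a and -0.26 for Srp54b. The log2 odds of the Srp54b coding share turned to -0.25 with 2 reads added and -0.51 by TPM. With 1 library left out, gene levels ranged from -0.28 to 0.24 for Srp54a, -0.035 to 0.53 for Srp54b, -0.33 to 0.18 for Srp54c and -0.22 to 0.17 for Srp9, and the Srp54b coding share from -0.97 to 1.87. Transcript levels ranged from -0.35 to 0.082 for Srp14-201, -0.46 to 0.25 for Srp19-201, -1.07 to 0.11 for Srp19-204, -0.17 to 0.38 for Srp54a-202, -1.53 to 0.22 for Srp54b-201, -0.31 to 0.19 for Srp54c-201, -0.60 to 0.33 for Srp68-201 and -1.56 to 0.12 for Srp72-205. Of the 43 levels, shares and ratios, 29 kept their sign with any 1 library left out, and 27 of these moved by more than 1.5 times; Srp9-202 ranged from -6.64 to -1.72 and was -5.63 with the replicate block. List medians ranged from -0.28 to 0.058 for the translocon, -0.27 to -0.037 for the exit site and -0.10 to 0.060 for targeting without SRP. Depth limits the low transcripts most, such as Srp54b-201 with 0 to 28.6 reads.

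Replicate numbers shared by the genotypes did not pair the libraries: the correlations of deviations of same-numbered libraries were -0.32, -0.16 and 0.00. With the replicate block, Srp72 was at -0.65 and 0 members were called, and the turned values were 0.022 for the log2 ratio of Srp72 to Srp68, 0.12 for Srp14-201, -0.035 for Srp54a-202, -0.76 for the Srp54b coding share, 0.010 for Srp54b-201, -0.11 for Srp9 and 0.025 for Srprb.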
